A study of Homo sapiens with 6 samples.

Results

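The 7SL RNAs are the RNA backbone of the signal recognition particle, and 3 of the 142 small RNAs in the deposited table are 7SL RNAs: RN7SL1, RN7SL2 and RN7SL3, taken by gene name. No other gene whose name begins with RN7SL was listed, although GENCODE 44 names 680 such genes. All values come from 3′-end sequencing of newly made RNA of 100 to 500 nt in a HEK 293T-REx line, derived from human embryonic kidney cells, in which TOE1 carries a degron. TOE1 is a 3′ exonuclease that removes A tails and trims small nuclear RNAs. The 3 libraries labelled TOE1-present and the 3 labelled TOE1-depleted share the line and its degron, so no group has unmodified TOE1. The depleted cells received 600 µM indole-3-acetic acid, the auxin that triggers degradation, for 8 hours. Ethynyl uridine at 0.2 mM, present for 8 hours, marked the RNA made in that time. Whether the TOE1-present cells received a vehicle, and whether the replicates are separate cultures, is not stated in the labels, so every p-value reflects how far these particular libraries scatter, and that scatter may be technical.

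The signal recognition particle binds signal peptides as they leave the ribosome and brings the ribosome to the endoplasmic reticulum, and 7SL RNA holds its proteins together. The RNA is made by RNA polymerase III, which stops in a run of T on the coding strand, so that the new transcript ends in a run of U. This end is trimmed, and a single A is commonly added to it after transcription. The comparison asks whether the amount, the 3′ end and the A tail of 7SL RNA differed between cells with and without TOE1.

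All 3 genes lie on chromosome 14 (hg38, GENCODE 44). RN7SL1 (ENSG00000276168) spans chr14:49586580-49586878 on the plus strand, 299 nt, inside an intron of RPS29, which is read from the opposite strand, and it overlaps none of its exons. RN7SL2 (ENSG00000274012) spans chr14:49862550-49862849 on the minus strand, 300 nt, and overlaps an exon of the long noncoding RNA gene ENSG00000282885 on the same strand. RN7SL3 (ENSG00000278771) spans chr14:49853616-49853914 on the minus strand, 299 nt, and lies 8635 nt from RN7SL2. It is not enclosed by another gene, and partial overlaps were not looked for.

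A read can be given to a member only where the members differ. RN7SL1 and RN7SL2 differed at 4 of 299 aligned positions, an identity of 98.7%. Only 1 of them lies in the last 100 nt, at position 275 from the 5′ end, and the 24 bases after it are identical. RN7SL3 differed from RN7SL1 at 7 positions (97.7% identity). Of these, 4 lie in the last 100 nt and 3 in the last 50 nt. RN7SL2 and RN7SL3 differed at 11 positions, an identity of 96.3%. A read of the last 24 nt therefore holds no base that separates RN7SL1 from RN7SL2, and it holds 3 that separate RN7SL3 from both. The read length and the handling of reads that map to several copies are unknown from the sources used here, so the split of reads between the members is uncertain, and their sum is given beside them.

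**Figure D1:**
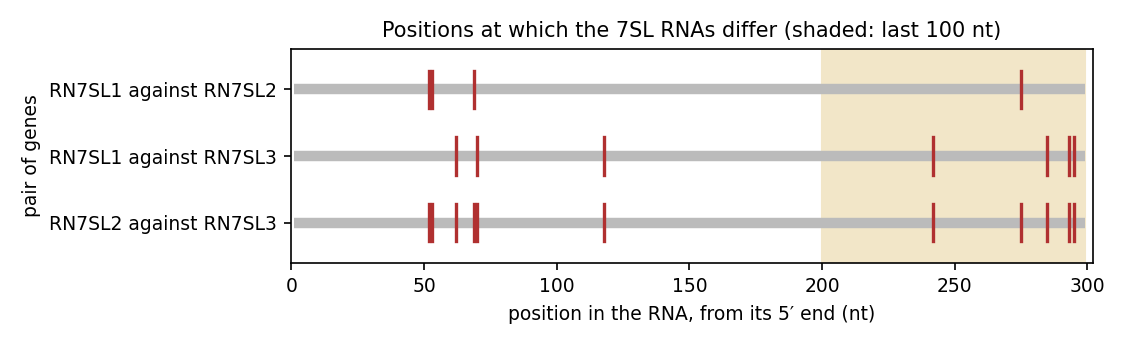
Positions at which each pair of 7SL RNAs differs, in nt from the 5′ end; each red tick is 1 differing base and the shaded band is the last 100 nt. RN7SL1 and RN7SL2 differ at 1 position in the band, while RN7SL3 differs from RN7SL1 there at 4.

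Every end and tail measure refers to the place where RNA polymerase III stops, which in each gene is a run of 4 T followed by a G. In GENCODE 44 the annotated RNA takes in 1 T of the run for RN7SL1 and RN7SL3 and 2 T for RN7SL2. If the authors used the same models, position 0 of RN7SL2 lies 1 nt further into the run than that of the others. Because the base after the run is a G, an A directly after any of these T is not encoded in the genome, whereas a U added within the run cannot be told apart from an encoded one.

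The libraries held 32813 to 75353 listed reads, and 7SL RNA was among the most abundant RNAs in each. RN7SL1 had 58467 reads over the 6 libraries, the most of all 142 RNAs, RN7SL2 had 29063 and RN7SL3 had 355. The adaptor joined to the RNA 3′ ends was AG11 for replicates 2 and 3 of the depleted group and AG10 for all other libraries, so adaptor and condition are partly confounded. Replicate 1 of both groups stood apart in how reads of RMRP, 7SK and U2 fell on alternative gene models, and results without that pair are given where they matter. The degron acts on TOE1 protein, so its loss cannot be read from RNA counts and was not checked here. With no messenger RNA among the listed RNAs, the markers of the cell line were not checked either.

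RN7SL1 was the most abundant listed RNA in every TOE1-present library and held rank 2 in every TOE1-depleted library. It took 21.3%, 22.8% and 29.2% of listed reads in the TOE1-present libraries and 13.7%, 17.4% and 19.2% in the TOE1-depleted libraries. All 3 depleted values lay below all 3 present values, as did those of 3 of the 142 RNAs (2.11%). RN7SL2 took 10.5%, 10.9% and 13.8% against 6.21%, 8.74% and 11.1%, and its highest depleted library lay within the range of the present ones. RN7SL3 took 0.172%, 0.116% and 0.145% against 0.0730%, 0.104% and 0.124%, with the same kind of overlap. For both, TOE1-depleted replicate 3 was the library that overlapped.

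Summed, the 3 RNAs took 32.0%, 33.8% and 43.2% of the reads of the TOE1-present libraries, a mean of 36.3% ± 5.99 (SD, n = 3). In the TOE1-depleted libraries they took 19.9%, 26.2% and 30.4%, a mean of 25.5% ± 5.26 (SD, n = 3). The groups did not overlap, and the difference was −10.8 percentage points (2-sided exact permutation test, p = 0.1, the smallest that 3 against 3 libraries allow). With the rows of U1 and U2 left out of the total, the means were 48.9% with TOE1 present and 37.1% with TOE1 depleted. The difference was −11.9 points (exact permutation test, p = 0.1). Both means are higher on this smaller total, so its points are not directly comparable with those above. Among AG10 libraries alone, TOE1-depleted replicate 1 at 19.9% stood below all 3 TOE1-present libraries, a difference of −16.4 points, where 0.25 is the smallest exact p. Without replicate 1 of both groups it was −10.2 points.

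**Figure D2:**
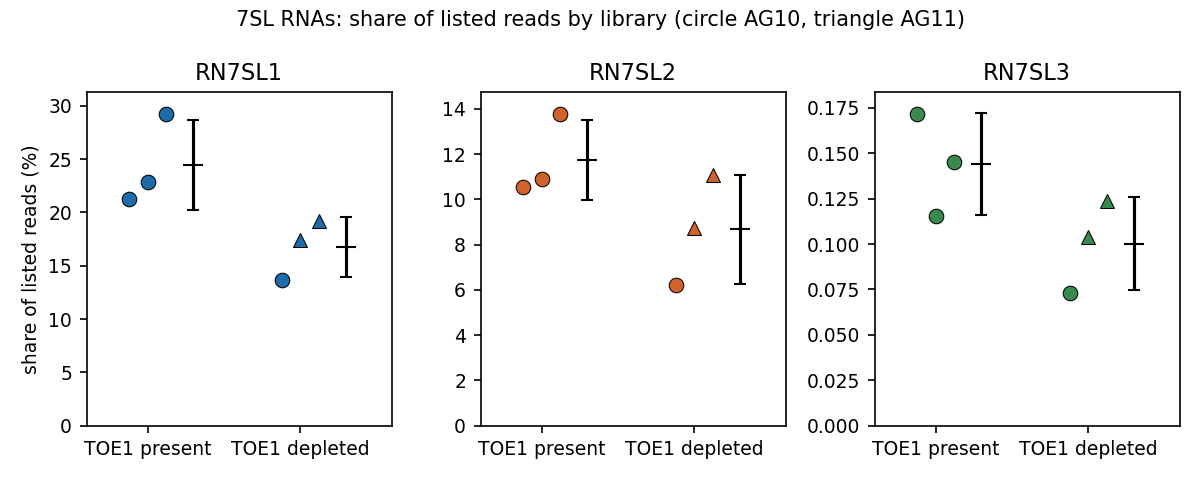
Share of listed reads (percent, axes from 0) of each 7SL RNA in each library; circles are AG10 libraries, triangles AG11 libraries, and the bar is the mean with its SD over 3 libraries. The RN7SL1 groups do not overlap (21.3% to 29.2% against 13.7% to 19.2%), whereas those of RN7SL2 and RN7SL3 do.

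Abundance was then tested on counts scaled by TMM (and printed as normalised CPM, the count relative to library size), which sets libraries to a common level of most RNAs. RN7SL1 stood at 287086, 245822 and 383766 TMM-normalised CPM in the TOE1-present libraries and at 151195, 138114 and 137432 in the TOE1-depleted libraries. RN7SL2 stood at 142078, 117303 and 180874 against 68785, 69359 and 79119, and RN7SL3 at 2316, 1246 and 1909 against 808, 822 and 886. All 3 members were lower in each depleted library than in any present one on this scale, as were 15 of the 101 RNAs tested (14.9%).

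On the TMM scale RN7SL1 and RN7SL3 were called lower in TOE1-depleted cells, and RN7SL2 stood just past the threshold of an adjusted p of 0.05. These calls are relative to the other listed RNAs. They did not hold under every scaling or with every library left out, as given below. The log2 change of RN7SL1 was −1.10 ± 0.25 (SE; edgeR's quasi-likelihood test, Benjamini-Hochberg adjusted p = 0.0445). That of RN7SL3 was −1.13 ± 0.23 (edgeR, adjusted p = 0.0348). That of RN7SL2 was −1.02 ± 0.24 (edgeR, adjusted p = 0.0508). With the replicate number as a block it was −0.999 (edgeR, adjusted p = 0.0178). It was not called with no filter on low counts (−1.07, edgeR, adjusted p = 0.0758) or with the adaptor as a covariate (−1.09, edgeR, adjusted p = 0.215). The summed 7SL counts changed by −1.13 ± 0.26 (edgeR, adjusted p = 0.0493), a value that does not depend on the split of reads between copies. TMM was computed again with the members summed, so this value is not on quite the same scale as those of the single members. Of the 101 RNAs tested, 3 were called lower (2.97%) and 5 higher, so 8 in either direction (7.92%); with the block, 10 were called lower and 8 higher. The RNA called lower besides RN7SL1 and RN7SL3 was RNU2-59P, a gene of the U2 family.

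The size of this difference depended on what the libraries were scaled to. Another scaling factor shifts all RNAs by about the same amount, so the distance of 7SL from the median RNA is nearly fixed by construction and is given only as a description. Under TMM the median of all RNAs tested was 0.08 on the log2 scale, and RN7SL1, RN7SL2 and RN7SL3 lay at −1.18, −1.095 and −1.20 relative to it. Scaled to library totals, the log2 changes were −0.53, −0.43 and −0.55, none of them called, and the median of all RNAs was 0.63, a shift of 0.555. On that scale edgeR called 0 RNAs lower and 31 higher, with 44 at an unadjusted p under 0.05. Scaled to the reads of RNase P, RNase MRP and 7SK, the other abundant RNA polymerase III RNAs, the changes were −0.30, −0.17 and −0.28, and the median was 0.85. On that scale edgeR called 0 RNAs lower and 11 higher, with 31 at an unadjusted p under 0.05. Over the 17 settings tried, RN7SL1 lay at −1.31 to −1.01 relative to the median RNA, RN7SL2 at −1.25 to −0.945, and RN7SL3 at −1.41 to −0.879. Reads give relative amounts only, so a fall of 7SL cannot be told apart from a rise of most other listed RNAs; nor can fewer cells be told apart from less RNA per cell.

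**Figure D3:**
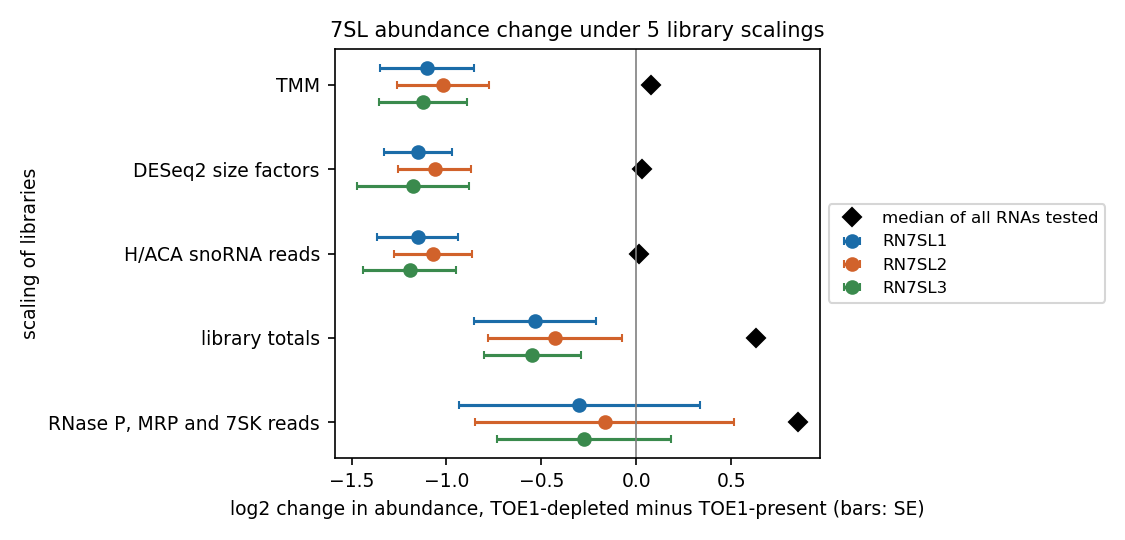
Log2 change in abundance (TOE1-depleted minus TOE1-present, bars are SE) of each 7SL RNA under 5 scalings of the libraries, with the median of all RNAs tested as a diamond. The members move from about −1.1 under TMM to between −0.30 and −0.17 under RNase P, MRP and 7SK reads, and the median moves with them from 0.08 to 0.85.

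The calls also depended on the libraries and on the adaptor term. Only depleted replicates 2 and 3 carried AG11, so the adaptor fit in effect compares depleted replicate 1 with the TOE1-present libraries. The SE of RN7SL1 was 0.42 in that fit and 0.25 without the term. With the adaptor as a covariate the log2 changes were −1.02, −1.09 and −1.19 for RN7SL1, RN7SL2 and RN7SL3 and none was called (edgeR, adjusted p = 0.226, 0.215 and 0.136), as was no RNA in either direction, although 20 had an unadjusted p under 0.05. With 1 library left out in turn, RN7SL1 was called in 0 of 6 fits (edgeR, adjusted p 0.0799 to 0.164) and RN7SL2 in 0 of 6 (the same range), while RN7SL3 was called in 1 of 6, without TOE1-present replicate 2 (edgeR, adjusted p = 0.0405). All of these changes stayed below 0. With replicate 1 of both groups left out, all 3 members were called (edgeR, adjusted p = 0.0344, 0.0383 and 0.0295).

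The proportions of the 3 copies overlapped between the groups. RN7SL1 made up 66.5%, 67.5% and 67.7% of 7SL reads in the TOE1-present libraries and 68.5%, 66.3% and 63.2% in the TOE1-depleted ones. RN7SL2 made up 32.9%, 32.2% and 31.9% against 31.2%, 33.3% and 36.4%, and RN7SL3 0.537%, 0.342% and 0.337% against 0.366%, 0.395% and 0.407%. The groups overlapped for every member, and the differences in mean were −1.25, 1.26 and −0.0157 percentage points (exact permutation test, p = 0.6, 0.6 and 1). RN7SL1 had 2.02, 2.10 and 2.12 times the reads of RN7SL2 in the TOE1-present libraries and 2.198, 1.99 and 1.74 times in the depleted ones, a ratio of reads as the table splits them between copies. The lowest ratio, 1.74, was in TOE1-depleted replicate 3.

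Across the 6 libraries the log2 CPM of RN7SL1 followed that of RN7SL2 with Pearson's r of 0.983, and RN7SL3 followed them with 0.916 and 0.935. These are descriptions over 6 libraries that share group, depth and scaling. Among 57 other RNAs with at least 200 reads, the 3 whose log2 CPM was most like the 7SL mean were RNU2-59P (r = 0.911), the Cajal body RNA SCARNA10 (0.903) and the U1 variant RNVU1-31 (0.874). Their log2 changes were −0.78, −0.60 and −0.77. Because the 7SL mean differed between the groups, changes below 0 follow in part from the rule that picked these RNAs.

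Of the RNA polymerase III list (12 RNAs beside 7SL: 7SK, RNase MRP, RNase P, Y, vault, U6 and U6atac RNAs), 9 were tested for abundance, and 0 were called lower and 0 higher by edgeR, with 2 of the 9, both lower, at an unadjusted p under 0.05, as were 28 of all 101 RNAs in either direction (27.7%). DESeq2 called 3 of the 8 with an adjusted p lower, RPPH1, RN7SK and VTRNA1-3, beside 13 of all 99 (13.1%). Their median log2 change was −0.23, with a range of −1.38 to 0.45. RPPH1, the RNA of RNase P, which cuts the 5′ leader off transfer RNAs, stood at −1.22 ± 0.52 on the log2 scale (SE; edgeR, adjusted p = 0.196). RN7SK, the RNA that holds the elongation factor P-TEFb inactive, had −0.67 ± 0.17 (edgeR, adjusted p = 0.0508). The other 7SK gene model, AL162581.1, held more reads (9881 against 1371) and was not among the 9 tested. RNU6ATAC, the U6 counterpart of the minor spliceosome, had −0.27 and U6 itself 0.19. The 2 models of RMRP, the RNA of RNase MRP, had −0.23 and −0.06, with reads that switched between the models in replicate 1.

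If position 0 is the end of the GENCODE 44 model, the median recorded 3′ end of 7SL RNA in cells with TOE1 lay inside the run of T. In the authors' deposited table the median end of TOE1-present cells was at position 1 for RN7SL1, 0 for RN7SL2 and 1 for RN7SL3, counted in nt downstream of position 0. With the 1 nt offset of RN7SL2, the median was at the same place of the run, position 1 on the RN7SL1 scale, for all 3. The mean positions in the authors' deposited table were 1.41, 0.289 and 2.01 nt, or 1.41, 1.29 and 2.01 nt on the RN7SL1 scale. The header does not say whether this position counts the untemplated tail, so it does not tell how many U were left.

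The genome-templated end of 7SL RNA, the last base that matches the genome, did not pass the test for any member. In the authors' deposited table the difference (TOE1-depleted minus TOE1-present) was 0.0229 nt for RN7SL1, and the 95% interval recovered from it and its p was −0.0831 to 0.129 nt. For RN7SL2 it was −0.0214 nt (−0.0640 to 0.0211) and for RN7SL3 −0.0667 nt (−0.727 to 0.594), both from the authors' deposited table. Their p-values, adjusted over the 139 RNAs with one, were 0.876, 0.677 and 0.919, and 3 of the 139 passed (2.16%). For RN7SL1 and RN7SL2 the intervals leave room for a shift of no more than 0.129 nt in either direction. The error of RN7SL2 was the smallest of those recovered among the 61 RNAs with at least 200 reads. An RNA without a deposited p, such as AL162581.1, has no recovered error. RN7SL3, with 355 reads, has an interval that reaches −0.727 nt.

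With the tail counted, the total end of RN7SL1 differed by −0.100 nt in the authors' deposited table, with a 95% interval from −0.269 to 0.0689 nt. RN7SL2 differed by −0.0490 nt (interval from −0.321 to 0.223) and RN7SL3 by −0.289 nt (interval from −1.53 to 0.948), again by the authors' deposited table. None passed (adjusted p = 0.610, 0.911 and 0.862), and 3 of 139 RNAs did (2.16%). The median change over the 61 RNAs was −0.0867 nt for the genome-templated end and −0.233 nt for the total end. A second p deposited by the authors, from a Kolmogorov-Smirnov test that counts every read as a replicate, was small for the total end of RN7SL1 and RN7SL2 (adjusted p = 8.25e-30 and 3.08e-19) and 1 for RN7SL3. In that test 24 of 141 RNAs passed for the total end (17.0%) and 13 of 141 for the genome-templated end (9.22%), where RN7SL1 and RN7SL2 had adjusted p of 2.4e-06 and 0.0051. It does not take in the spread between libraries.

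Of the 12 RNA polymerase III RNAs, 11 had a p for the genome-templated end in the authors' deposited table, and 0 passed in either direction, adjusted or unadjusted. Their median change was −0.128 nt, with the Y and vault RNAs of 24 to 140 reads counted. Among those with the most reads, the change in the authors' deposited table was 0.0651 nt for RN7SK, −0.143 nt for RPPH1, 0.0703 nt for RNU6ATAC and 0.369 nt for U6. The genome-templated intervals of these 4 were each wider than those of RN7SL1 and RN7SL2.

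**Figure D4:**
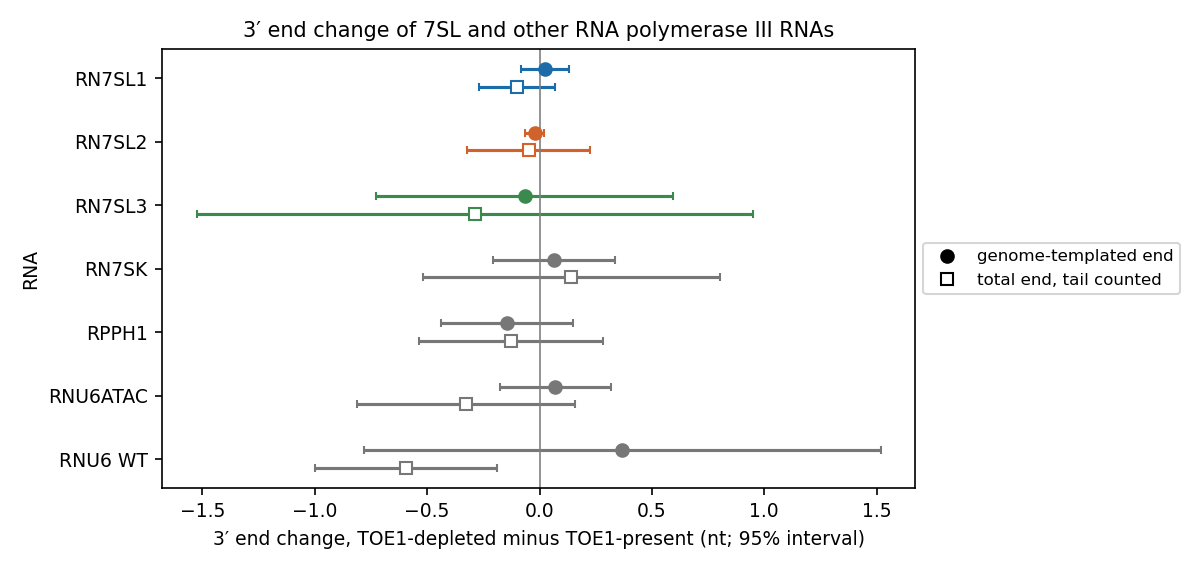
Change of the 3′ end in nt (TOE1-depleted minus TOE1-present, with 95% intervals recovered from the deposited p) for the 7SL RNAs and 4 other RNA polymerase III RNAs; filled circles are genome-templated ends and open squares total ends. The 7SL intervals all cross 0, and for the genome-templated end those of RN7SL1 and RN7SL2 are the narrowest drawn.

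Tails not encoded in the genome were short and made mostly of A. In the authors' deposited table, tails of TOE1-present cells held 1.01, 1.06 and 1.39 untemplated bases per read for RN7SL1, RN7SL2 and RN7SL3. Of these bases 73.9%, 74.8% and 55.6% were A. In TOE1-depleted cells the tails held 0.883, 1.03 and 1.17 bases per read in the authors' deposited table. For RN7SL1 the change of the tail was −0.123 nt, of which A bases made up −0.104 nt (adjusted p = 0.448) in the authors' deposited table, and 0 of 137 RNAs passed for A bases (0.0%).

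A tail of 1 or more A was the commonest state of RN7SL1 and RN7SL2. In the authors' deposited table a share of 57.0% of RN7SL1 reads, 59.5% of RN7SL2 reads and 39.8% of RN7SL3 reads had one in TOE1-present cells. Among the 61 RNAs with at least 200 reads, RN7SL2 held rank 1 and RN7SL1 rank 2 in both conditions, and RN7SL3 rank 6 and rank 5. The median of the 61 was 18.8%. The next highest RNA of the polymerase III list was RN7SK, at 46.9% in the authors' deposited table.

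Nearly all of these tails were a single A. A tail of exactly 1 A was found on 53.0% of RN7SL1 reads, 55.0% of RN7SL2 reads and 35.4% of RN7SL3 reads in the authors' deposited table. This was 93.0%, 92.4% and 89.0% of their A-tailed reads. Tails of 2 or more A were on 4.01%, 4.51% and 4.37% of reads, and tails of 3 or more A on 0.213% and 0.136% of RN7SL1 and RN7SL2 reads, in the authors' deposited table. RN7SL3 was listed at 0 for the latter.

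With TOE1 depleted, the A-tailed share was lower for all 3 members, and none passed after adjustment. It was 47.3% for RN7SL1, a difference of −9.66 percentage points in the authors' deposited table (95% interval −19.3 to −0.0566, unadjusted p = 0.0492, adjusted p = 0.214). For RN7SL2 it was 51.6%, a difference of −7.86 points in the authors' deposited table (−20.3 to 4.56, adjusted p = 0.327). For RN7SL3 it was 26.5%, a difference of −13.3 points in the authors' deposited table (−35.97 to 9.43, adjusted p = 0.350). Of the 128 RNAs with a p, 0 passed after adjustment (0.0%) and 24 were lower at an unadjusted p under 0.05 (18.8%). With limma's moderated test 0 of 128 passed as well.

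A lower A-tailed share was common in this table: 54 of the 61 RNAs had one, with a median change of −9.28 points and a median depleted share of 10.2%. RN7SL1 and RN7SL2 kept 83.1% and 86.8% of their A-tailed share, and RN7SL3 66.7%, while the median RNA of 59 with a value kept 50.2%, with quartiles of 40.04% and 68.1%. Only 8 RNAs kept more than RN7SL1 and 7 more than RN7SL2, and 15 kept more than RN7SL3. No test of this difference between RNAs was made. All 12 RNA polymerase III RNAs had a lower share, with a median change of −11.4 points. RNU6ATAC went from 44.7% to 17.9% and RN7SK from 46.9% to 42.5% in the authors' deposited table. The other 7SK gene model, AL162581.1, had 9881 reads against 1371 for RN7SK. It went from 45.2% to 19.7% in the authors' deposited table, with no deposited p. The 7SK models thus differed, with 90.7% of the A-tailed share kept for RN7SK and 43.6% for AL162581.1.

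**Figure D5:**
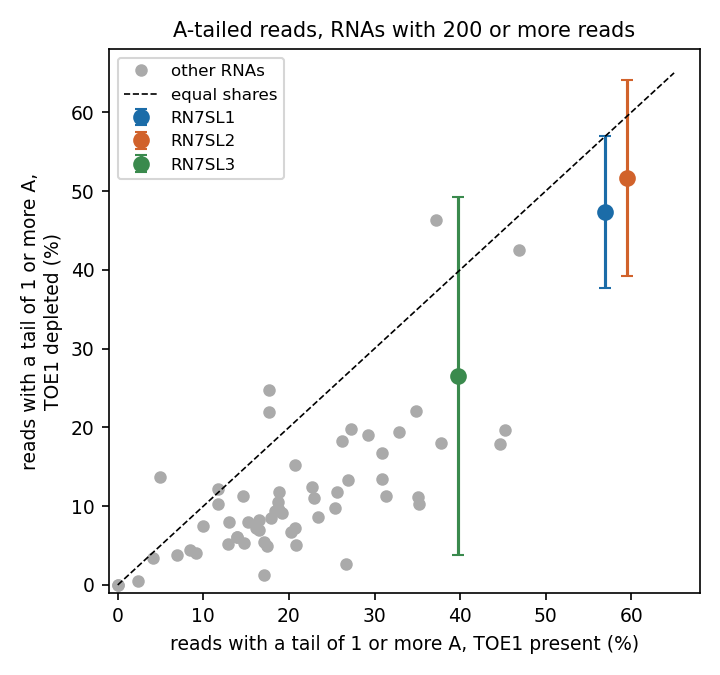
Share of reads with a tail of 1 or more A in TOE1-present (x axis, percent) and TOE1-depleted cells (y axis, percent) for the 61 RNAs with at least 200 reads; vertical bars on the 7SL RNAs are the 95% interval of the difference, and the dashed line marks equal shares. RN7SL1 (57.0%, 47.3%) and RN7SL2 (59.5%, 51.6%) stand at the upper right, below the line.

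Shares of longer A tails were low in both conditions. In TOE1-depleted cells a single A was on 44.04%, 47.9% and 25.9% of reads in the authors' deposited table, and it again made up 93.0%, 92.7% and 97.7% of the A-tailed reads. The change of the single A share of RN7SL1 was −8.94 points in the authors' deposited table (95% interval −15.7 to −2.19, unadjusted p = 0.0213, adjusted p = 0.232). Of the 123 RNAs with a p, 0 passed after adjustment and 22 were lower at an unadjusted p under 0.05 (17.9%). Tails of 2 or more A went to 3.29%, 3.78% and 0.606% in the authors' deposited table. The adjusted p-values were 0.751, 0.763 and 0.476, and 1 of 93 RNAs passed (1.08%).

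Reads classed as having a U tail were rare on 7SL RNA, as far as the run of T lets them be seen. This concerns the tail classes and not all untemplated U. Counted as bases, untemplated U came to 0.0743, 0.0762 and 0.141 per read for RN7SL1, RN7SL2 and RN7SL3 in TOE1-present cells, by the authors' deposited table. In the authors' deposited table a tail of 1 or more U was on 0.0874% of RN7SL1 reads with TOE1 and on 0.152% without it. RN7SL2 had 0.151% and 0.127%, and RN7SL3 1.43% and a listed value of 0, in the authors' deposited table. Tails of both A and U were on 0.571% and 0.390% of RN7SL1 reads and on 0.654% and 0.318% of RN7SL2 reads by the same authors' deposited table. None of these changes passed (adjusted p = 0.673, 0.738 and 0.673 for U; 0.506 and 0.506 for A and U). No U or A and U tail measure passed for any of the 54 and 41 RNAs tested (0.0%).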

How the data were processed

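The deposited table of 142 RNAs was used. Per the file headers, its counts are reads of each library, deposited unscaled. End positions (−10 to 50 nt around position 0), untemplated bases, tail types as fractions (printed here as percent), differences and p-values were deposited by the authors for each condition, not each library. STAR 2.7.8a and hg38 are named in the submitters' processing notes; the annotation is not given in the sources used here. GE and TE were read as genome-templated and total end, since TE minus GE equalled the summed tail changes in 142 of 142 rows (tolerance 1e-06).

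Counts were tested with edgeR 4.0.16 (R 4.3.3), using TMM, filterByExpr and glmQLFTest, checked on simulated data. DESeq2 1.42.0 and limma 3.58.1 served as alternatives, and shares were tested with scipy 1.17.1. Deposited p-values were adjusted by Benjamini-Hochberg per measure, and errors were recovered with 4 degrees of freedom. Members were compared base by base on hg38 with GENCODE 44 models; their sequences are not reported here. PCR reads are not independent molecules. The members, the RNA polymerase III list (named one by one from 1000 reads) and the rule for the 3 most similar RNAs were chosen with earlier results of these data known.

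Same-numbered libraries deviated together (r = 0.907, 0.258 and 0.807 over 101 RNAs), which by the rule used here pairs them, but differently numbered libraries did so as well (present 3 with depleted 2, r = 0.811; present 2 with depleted 3, r = 0.275). Without both RMRP models and AC024051.4 the values were 0.0197, 0.00892 and 0.144 over 98 RNAs. The labels do not say what the numbers mark, so the main edgeR fits compared the groups without pairing, and the block was an alternative. For RN7SL2 this choice decided the call (edgeR, adjusted p = 0.0508 without the block and 0.0178 with it). No libraries within a group agreed within sampling noise, so each was counted.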

Additional observations from a re-analysis of the deposited data

How the results depend on the processing

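All 64 alternative values for the abundance of the 3 RNAs and their sum kept the direction below 0, and 22 passed the threshold in edgeR or DESeq2. Calls were lost under the following settings, with log2 changes for RN7SL1, RN7SL3 and the sum where they apply. With library totals they were −0.53, −0.55 and −0.50, with RNase P, RNase MRP and 7SK reads −0.30, −0.28 and −0.26, with the adaptor as a covariate −1.02, −1.19 and −1.12, and with AG10 libraries alone −1.04, −1.22 and −1.14. With no filter on low counts RN7SL1 was at −1.15 and the sum at −1.13. RN7SL2 passed with DESeq2 (−1.06), H/ACA scaling (−1.07), the replicate block (−0.999), replicate 1 of both groups left out (−1.02) and merged RMRP, 7SK and U2 models (−1.03); the last 2 settings were added after seeing the data, as were the sign flips below. With 1 library left out the values ran from −1.28 to −0.94 for RN7SL1, −1.19 to −0.87 for RN7SL2, −1.38 to −0.94 for RN7SL3 and −1.26 to −0.95 for the sum.

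RNAs called lower and higher numbered 3 and 5 in edgeR as reported. They numbered 13 and 5 with DESeq2, 7 and 4 with H/ACA scaling, 10 and 8 with the replicate block, 10 and 2 without replicate 1 of both groups, 8 and 5 with merged models, 2 and 3 with no filter, 0 and 31 with library totals, and 0 and 11 with RNase P, RNase MRP and 7SK reads. They were 0 and 0 with the adaptor covariate and with AG10 alone, where 20 and 19 RNAs had an unadjusted p under 0.05, and 0 to 1 and 0 to 1 with 1 library left out (22 to 28 at an unadjusted p under 0.05). The cause of these differences was not tested.

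The summed share of reads stayed lower throughout, by −13.2 to −7.38 points with 1 library left out; pairing by number left it at −10.8 (exact sign flips, p = 0.25, the smallest possible). The members' shares of 7SL reads changed sign with AG10 alone (1.23 points for RN7SL1, −1.19 for RN7SL2), and for RN7SL3 without replicate 1 of both groups (0.0616). With 1 library left out they ran from −2.49 to 0.147, −0.123 to 2.49 and −0.0499 to 0.04999 points. For ends and tails, the alternatives kept the same deposited differences and changed only the p or its adjustment. No member passed in them, as in the main test, except by the Kolmogorov-Smirnov p. That p passed for RN7SL1 (0.0229 and −0.100 nt) and RN7SL2 (−0.0214 and −0.0490 nt). Because ends and tails were deposited per condition, no library could be left out. The adaptor and replicate 1 were therefore not tested for these measures. RN7SL3 rests on 34 to 98 reads a library, and its end intervals are wider than those of RN7SL1 and RN7SL2.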
